A study of Mus musculus with 6 samples.

Results

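The genes described here are 31 genes for proteins of the lysosomal membrane. They fall into 8 subunits of the V1 sector of the vacuolar proton pump (V-ATPase), 9 genes of its V0 sector with the accessory subunits, and 14 other lysosomal membrane proteins. The list was drawn up by gene name, with earlier results of these data known, and 31 of the 55414 gene identifiers in the deposited table carry these symbols. RNA was sequenced from TM4, a male mouse testis cell line that serves as a Sertoli cell model, in 3 control libraries and 3 libraries of a group labelled VC. The sample titles read VC and the series title names vitamin C, whereas valine is what the agent field and the design statement give, so the group is called VC here. The labels give no dose or exposure time, and nothing in them ties the replicates to separate cultures. The p-values therefore set the group difference only against the variation among these 6 samples within their groups, and that variation may be technical. In bulk RNA of this kind, fewer cells expressing a gene and less of its RNA per cell cannot be told apart.

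The V-ATPase pumps protons into lysosomes and other acidic compartments. Its V1 sector sits in the cytosol, hydrolyses ATP and turns a central stalk, and its V0 sector lies in the membrane, where a ring of proteolipid subunits rotates against an a subunit and carries protons across. The other proteins studied coat the membrane, move ions, amino acids and sugars across it, or deliver enzymes to the lumen. Transcription of many lysosomal genes is driven by the factors TFEB, TFE3 and MITF, which bind E-boxes, also known in this setting as CLEAR elements.

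In VC, 3 of the 31 genes rose and none fell at an adjusted p under 0.05 (limma, Benjamini-Hochberg over 13972 genes). The called genes were Ctns, the lysosomal cystine exporter, Gpnmb, a glycoprotein of lysosomes and melanosomes, and Atp6v1b2, the B2 subunit of the pump's V1 sector. Over all genes tested, 0.429% were called higher and 0.258% lower. At an unadjusted p under 0.05 there were 21 members higher and 0 lower, against 1264 higher and 1146 lower of the 13972 genes tested. The differences of the 31 genes were small and nearly all on the same side. The log2 fold change, the mean log2(value + 1) in VC less that in control, was above 0 for 30 of 31 genes and had a median of 0.17, against 53.7% of genes above 0 and a median of 0.012 over all genes tested. In 22 of the 31 genes the lowest VC library lay above the highest control library, and in 0 genes the highest VC library lay below the lowest control library. Over all genes tested, 13.9% were separated upwards and 11.6% downwards. The members share libraries and scaling, so these counts are a description of the list.

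**Figure D1:**
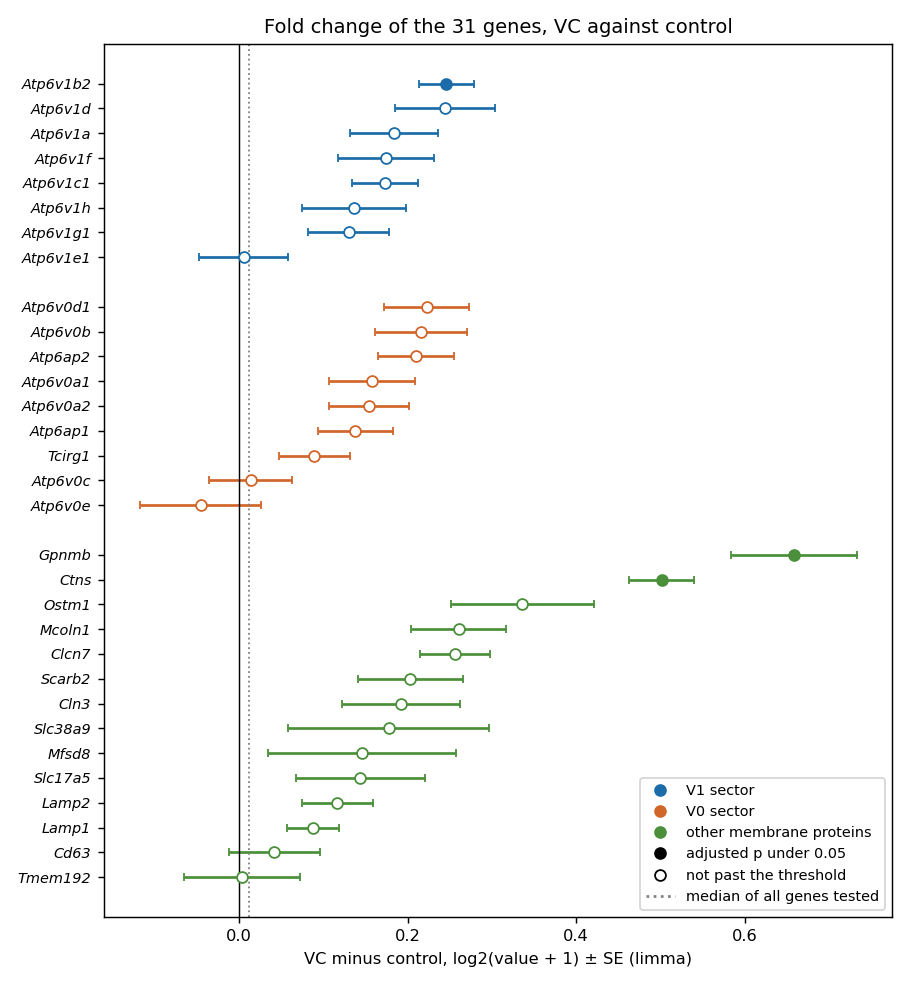
Log2 fold change (mean log2(value + 1) in VC less that in control, points) with its limma standard error (bars) for each of the 31 genes, coloured by V1 sector, V0 sector and other membrane proteins. Filled points are the 3 genes past the threshold (Atp6v1b2, Gpnmb and Ctns), the dotted line is the median of all genes tested (0.012), and 30 of 31 points lie to the right of 0.

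The number of called members moved with the processing. Scaling the libraries to equal totals gave 11 called members and limma-voom on reads recovered from the values also gave 11, all higher in VC, and both sets held the 3 genes above. Equal totals changed the calls over all genes from 60 higher and 36 lower to 182 higher and 35 lower. No member was called without the intensity trend of the variance prior, and only Ctns with no expression filter. None was called either when control replicate 1, control replicate 2 or any 1 of the 3 VC replicates was left out, whereas 5 were called without control replicate 3 (Atp6v1b2, Atp6v0b, Atp6v0d1, Gpnmb and Ctns).

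Recovered depth was 20408425 to 22316857 reads per library. Control replicate 3 stood apart from the other libraries, with a chi-square per degree of freedom of 9.57 to 17.2 against any other library and 2.78 to 7.28 between the rest, and it was the highest of the 3 controls for 18 of the 31 genes. Of 13 genes encoded by mitochondrial DNA, a rough sign of RNA quality, 9 were lower in all 3 VC libraries than in any control. None passed (5 lower at an unadjusted p under 0.05), and their summed level was 99590 to 101600 in control and 89870 to 95920 in VC. Longer genes had slightly higher fold changes in general: with tested genes cut by exon length into 4 equal bins, the median went from -0.038 in the shortest bin to 0.054 in the longest. The members' median was 0.15 (2 genes), 0.14 (9), 0.18 (10) and 0.17 (10) from the shortest to the longest bin. The part of these patterns in the members' values was not tested.

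Gpnmb and the a3 pump subunit gene Tcirg1 are abundant in macrophages and osteoclasts, and Gpnmb also in melanocytes. Markers of macrophages, melanocytes and Sertoli cells were therefore read, and no list for osteoclasts was. Of 14 macrophage markers, 12 stayed under a value of 1 in every library, and 5 of them, Adgre1, Tyrobp, C1qa, C1qb and C1qc, were listed at 0 throughout. The summed level of the list was 56.1 to 65.8 in control and 61.1 to 71.5 in VC, most of it from Cd14 (49.7 to 67.0). Of 7 melanocyte markers, 6 were under 1 everywhere, Tyr and Tyrp1 were listed at 0, and the list summed to 2.02 to 3.01 in control and 2.38 to 3.60 in VC. Of 15 Sertoli markers, 4 were listed at 0 in all libraries (Wt1, Fshr, Dmrt1 and Gata1), while Gata4 ran from 18.6 to 22.3 and Inhbb from 151.1 to 179.5. The marker sum was 1453 to 1539 in control and 1404 to 1460 in VC, most of it vimentin.

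The promoters of several members hold the E-box CACGTG, which reads the same on both strands. RefSeq start sites on build GRCm38.p6 gave windows of 250 bases before to 50 bases after a start for 26 of the 31 genes. The 5 genes without a window were Atp6v1b2, Atp6v1c1, Atp6v1g1, Atp6v1h and Atp6v0a2. CACGTG was found in 8 of the 26 genes (30.8%), against 8.09% of the 27025 genes in the table. The longer core of the CLEAR element, TCACGTGA, which contains the E-box and is also its own reverse complement, was found in 6 of 26 (23.1%), against 1.12% of all genes. GTCACGTG, searched on both strands and overlapping the E-box, was also found in 6 of 26, against 2.55%. A match is a description of the letters and not evidence of binding. As CLEAR elements are a known feature of many lysosomal genes, these shares say nothing about VC.

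Stretches upstream of the start are shown for 5 genes with an E-box, to let its number and spacing be seen, with each E-box in capitals. Lamp1 (chr8:13159011-13159160, plus strand) has 4 E-boxes between 61 and 10 bases before the start. Mcoln1 (chr8:3500369-3500486, plus strand) and Atp6v0b (chr4:117887330-117887479, minus strand) have 2 each. Clcn7 (chr17:25133241-25133390, plus strand) and Atp6v1a (chr16:44139276-44139409, minus strand) have 1 each in the stretch shown. Each runs 5′ to 3′ on the gene's strand from 150 bases before the start. The 3′ ends of Mcoln1 and Atp6v1a are cut short, and 30 bases of each printed stretch still lie in annotated exons.
Lamp1: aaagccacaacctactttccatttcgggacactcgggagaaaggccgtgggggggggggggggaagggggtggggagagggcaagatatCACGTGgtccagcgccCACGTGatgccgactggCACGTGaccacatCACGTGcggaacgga
Mcoln1: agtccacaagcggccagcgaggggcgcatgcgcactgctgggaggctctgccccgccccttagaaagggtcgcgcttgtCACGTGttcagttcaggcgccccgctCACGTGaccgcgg
Atp6v0b: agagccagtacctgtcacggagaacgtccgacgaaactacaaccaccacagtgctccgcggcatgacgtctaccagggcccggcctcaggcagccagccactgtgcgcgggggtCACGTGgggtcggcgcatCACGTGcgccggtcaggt
Clcn7: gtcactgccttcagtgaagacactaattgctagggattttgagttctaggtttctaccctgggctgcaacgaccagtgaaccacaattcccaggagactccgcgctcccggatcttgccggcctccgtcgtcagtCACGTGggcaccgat
Atp6v1a: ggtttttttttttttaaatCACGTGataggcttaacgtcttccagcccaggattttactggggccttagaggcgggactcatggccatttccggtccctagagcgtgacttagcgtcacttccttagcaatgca

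The 3 other genes with an E-box were Cln3 (149 and 121 bases before a start, not printed because annotated exons cover that window), Atp6v0d1 (across the start) and Atp6v0e (from 4 bases after it). A second E-box of Clcn7 begins 8 bases after its start. All VC libraries lay above all control libraries in each of these 8 genes except Atp6v0e, at log2 fold changes of 0.09 (Lamp1) to 0.26 (Mcoln1 and Clcn7). Such separation was seen in 22 of all 31 members (71%) and in 13.9% of all genes tested. Whether an E-box goes with the fold change was not tested. None of the 8 passed the threshold, against 0.429% called higher and 0.258% lower over all genes tested. The called genes with a window, Gpnmb (chr6:49036368-49036517, plus strand) and Ctns (chr11:73199020-73199169, minus strand), are shown for comparison. Neither has a CACGTG in its window of 300 bases, which says only that these letters are not in it.
Gpnmb: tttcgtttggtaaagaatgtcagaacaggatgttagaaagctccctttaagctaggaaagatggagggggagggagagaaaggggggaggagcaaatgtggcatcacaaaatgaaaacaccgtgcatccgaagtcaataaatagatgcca
Ctns: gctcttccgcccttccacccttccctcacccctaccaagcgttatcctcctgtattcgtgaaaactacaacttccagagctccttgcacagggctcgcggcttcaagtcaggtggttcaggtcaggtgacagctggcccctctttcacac

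**Figure D2:**
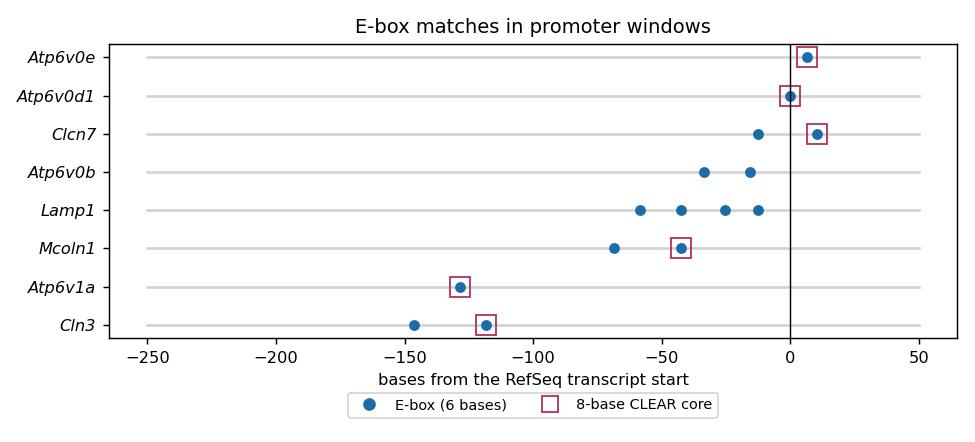
Position of each E-box (dots) and of each 8-base CLEAR core (open squares) in the promoter windows of the 8 members that hold one, as bases from the RefSeq start (vertical line at the start, grey lines from 250 before to 50 after). Lamp1 has 4 E-boxes and no CLEAR core, and the matches of Atp6v0d1, Clcn7 and Atp6v0e lie within 15 bases of the start.

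Among the pump genes, the V1 sector had a median log2 fold change of 0.17 over 8 genes and the V0 sector 0.15 over 9 genes. Both medians were above 0 under every alternative run. All 3 VC libraries exceeded all 3 control libraries for 5 of 8 V1 genes and 7 of 9 V0 genes, against 13.9% over all genes tested. Of these 17 genes, 1 passed the threshold, higher in VC, against 0.429% called higher over all genes tested. The summed value of the 8 V1 genes ran from 800.7 to 862.9 in control and from 903.4 to 943.8 in VC, and that of the 9 V0 genes from 858.0 to 940.5 and from 962.6 to 1003. The sums do not overlap between groups.

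The head of V1 is built from A and B subunits, which bind ATP. Atp6v1b2 (ENSMUSG00000006273 in the table) was at 69.7, 70.9 and 70.9 in control replicates 1 to 3 and at 83.6, 85.7 and 82.2 in VC. The groups lay 11.3 units apart, far beyond the spread within either (70.5 ± 0.734 and 83.8 ± 1.74, mean ± SD, n = 3). It rose 1.19-fold, by 0.25 on the log2 scale (SE 0.033, limma adjusted p = 0.0348), on 2862 to 3638 reads per library. Its call was lost without any 1 library other than control replicate 3, at adjusted p of 0.108 to 0.163, while the log2 fold change stayed between 0.23 and 0.26. Atp6v1a, the catalytic A subunit, was at 73.8, 74.8 and 66.6 in control and 79.7, 80.8 and 84.0 in VC. These groups were also apart, by 0.18 in log2 terms (SE 0.052), without passing (limma adjusted p = 0.156).

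The central stalk is formed by the D and F subunits. Atp6v1d was at 34.6, 36.3 and 35.9 in control and at 38.9, 44.9 and 43.5 in VC, and its log2 fold change of 0.24, close to that of Atp6v1b2, had a larger error (SE 0.0595, limma adjusted p = 0.121). Atp6v1f had a log2 fold change of 0.17, and its groups overlapped, since control replicate 3 (215.4) exceeded VC replicate 3 (214.3). The remaining V1 genes encode the peripheral stalks and the C and H subunits that tie the head to the membrane. Atp6v1g1 had the highest level of the sector on this per-length scale, at 271.8, 276.4 and 304.6 in control and 309.8, 314.8 and 307.7 in VC. Its groups were apart by only 3.16 units (log2 fold change 0.13, limma adjusted p = 0.24). Atp6v1c1 (0.17, adjusted p = 0.104) was separated too, and Atp6v1h, the lowest of the sector at 14.4 to 17.4, was not. Atp6v1e1 was at 67.2, 67.9 and 72.2 in control and 70.6, 72.7 and 65.0 in VC. Its groups overlapped fully and its log2 fold change was 0.0057 (limma adjusted p = 0.97), changing sign without control replicate 1 or 2 or VC replicate 1 or 2 (-0.028 to -0.0065).

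In the V0 sector, Atp6v0d1, whose d subunit couples the stalk to the membrane ring, had the highest fold change. It was at 124.1, 123.0 and 137.9 in control and 147.2, 153.4 and 148.5 in VC. The groups were apart, with control replicate 3 the highest control, and differed by 0.22 in log2 terms (limma adjusted p = 0.106, SE 0.051). It passed without control replicate 3 (0.28, limma adjusted p = 0.0377), with equal totals (adjusted p = 0.0258), after quantile normalization (adjusted p = 0.0471) and on recovered reads (adjusted p = 0.0353). Atp6v0b, the c″ proteolipid of the ring, was at 111.2, 117.9 and 128.6 in control and 139.4, 139.6 and 136.3 in VC (log2 fold change 0.22, limma adjusted p = 0.126). Its groups were also separated, and of the alternatives run it was called without control replicate 3, with equal totals and on recovered reads. The accessory subunits Atp6ap1, an assembly factor, and Atp6ap2, the prorenin receptor, had log2 fold changes of 0.14 and 0.21 (limma adjusted p = 0.197 and 0.0958), both with separated groups.

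The 3 a subunit genes among the members place the pump in different compartments, a3 (Tcirg1) being known for lysosomes and the osteoclast border. All 3 had VC libraries above control libraries, against 13.9% of all genes tested, and none passed, against 0.429% called higher. Their log2 fold changes were 0.16 for Atp6v0a1, 0.15 for Atp6v0a2 and 0.09 for Tcirg1. Their proportions hardly moved. Of the summed a subunit value, Tcirg1 made up 41.3% to 44.1%, Atp6v0a2 31.6% to 35.3%, Atp6v0a1 19.96% to 21.98% and the kidney form Atp6v0a4 2.01% to 2.54% across the 6 libraries, with overlapping groups for all 4 genes.

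The small e subunit and the c proteolipid behaved unlike most of the sector in their values. Atp6v0e, the only member with a log2 fold change below 0, was at 65.2, 65.0 and 77.8 in control and 66.9, 68.3 and 65.6 in VC. Control replicate 3 alone was high, and the log2 fold change of -0.045 (limma adjusted p = 0.784) became 0.039 without that library and 0.026 with equal totals. Atp6v0c, the c subunit that makes up most of the ring, was at 182.8, 193.9 and 204.5 in control and 188.3, 198.5 and 199.7 in VC, with overlapping groups (log2 fold change 0.014, limma adjusted p = 0.913, with the other sign without control replicate 1 or VC replicate 3).

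The value of Atp6v0c is uncertain, because Atp6v0c-ps2, a processed copy with 99.8% identity over 465 aligned bases, was itself listed at 1167 to 1297. The copy took 45.9% to 47.5% of the reads recovered for the pair. Adding the reads of both gave a log2 ratio of VC to control means of 0.039, which is close to that of Atp6v0c alone. Copies of 2 more members held a smaller part: Gm13453 (99.4% identical to Atp6v1g1 over 357 bases) took 8.17% to 9.11% of that pair's reads, and Cd63-ps (98.0% over 858 bases) 6.27% to 7.09% of the reads of its pair with Cd63. The log2 ratios of the summed reads were 0.13 and 0.043. Cln3 shares 7.6% of its exon bases with Apobr on the opposite strand, which was at 50.4 on average against 11.35 for Cln3, and with no statement that strand was used in counting, reads in the shared part cannot be assigned.

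**Figure D3:**
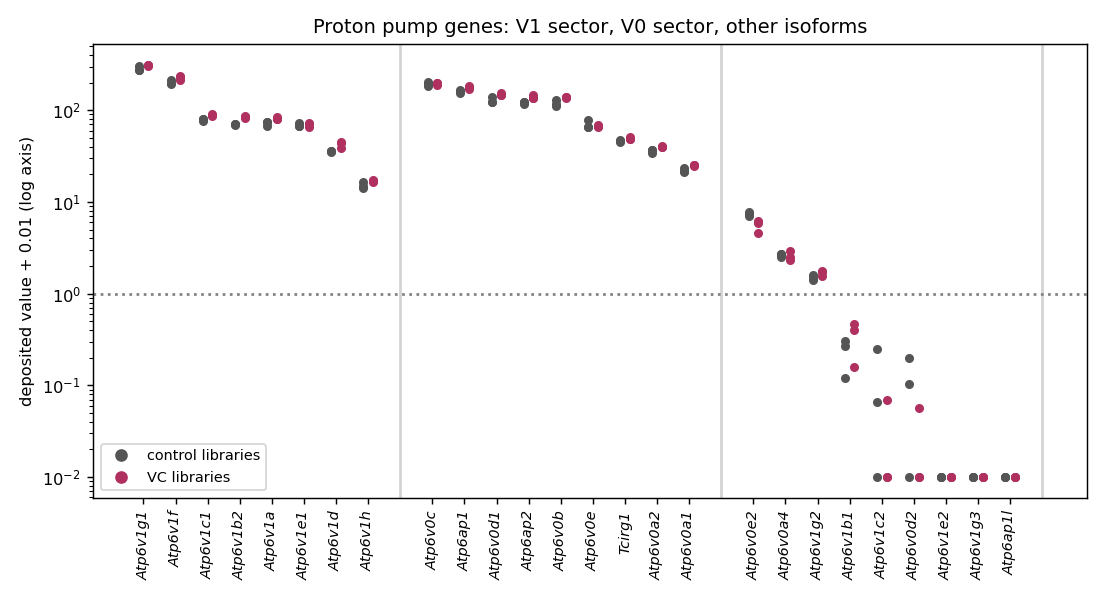
Deposited value plus 0.01 on a log axis for each proton pump gene in the 3 control (grey) and 3 VC (red) libraries, for the V1 sector, the V0 sector and other isoforms, with a dotted line at 1. V1 and V0 members lie between 14.4 and 314.8, and 6 of the 9 other isoforms lie under the dotted line in every library.

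Alternative isoforms of the pump, mostly known from kidney, brain, testis or osteoclasts, were low. Of 9 such genes, 6 stayed under 1 in all libraries, and Atp6v1e2, Atp6v1g3 and Atp6ap1l were listed at 0 throughout. Atp6v1b2 accordingly made up 99.45% to 99.85% of the summed B subunit value and Atp6v1g1 99.42% to 99.55% of the G subunit value. The 3 isoforms above 1 were Atp6v0e2, Atp6v0a4 and Atp6v1g2. Atp6v0e2, the highest of them, was at 7.43, 7.82 and 7.03 in control and 5.89, 4.52 and 6.21 in VC. All VC libraries lay below all control libraries, by -0.37 in log2 terms (SE 0.114), without passing (limma adjusted p = 0.176).

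**Figure D4:**
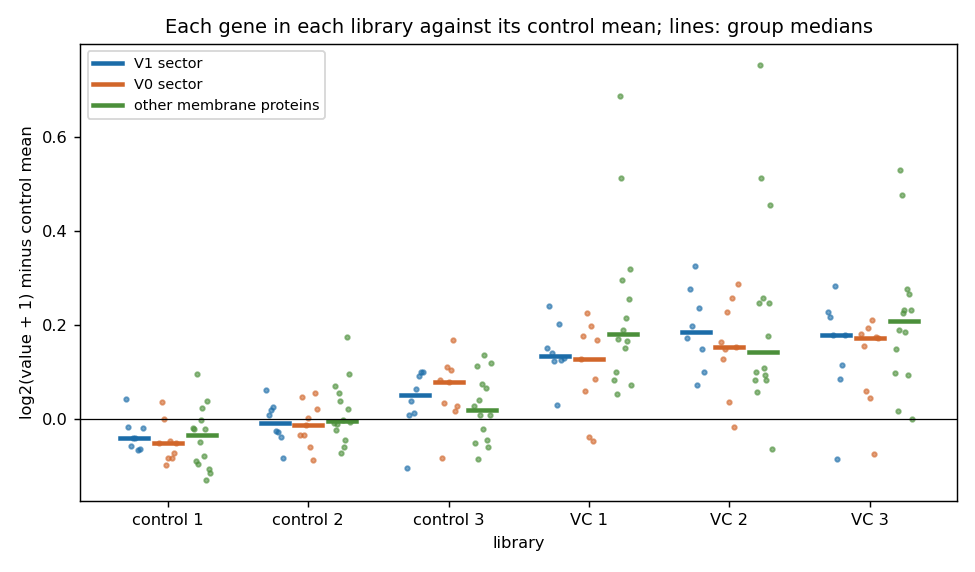
Log2(value + 1) of each of the 31 genes minus its control mean (vertical axis) in each library (horizontal axis), coloured by V1 sector, V0 sector and other membrane proteins, with lines at the median of each. The medians of the VC libraries lie between 0.13 and 0.21, above those of the control libraries (-0.051 to 0.079), of which control replicate 3 is the highest in all 3 colours.

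The 14 other membrane proteins had a median log2 fold change of 0.18, ranging from 0.0036 to 0.66, with 2 called higher and 10 of 14 separated between groups. Of all genes tested, 0.429% were called higher and 13.9% were separated upwards. Ctns (ENSMUSG00000005949) returns cystine from the lysosome to the cytosol. It was at 39.9, 42.5 and 41.6 in control and 59.4, 59.4 and 57.9 in VC. The VC values lay 15.4 units above the highest control, with a spread of about a unit in each group (41.3 ± 1.28 and 58.9 ± 0.879, mean ± SD, n = 3). Ctns rose 1.43-fold as a ratio of means. Its log2 fold change, on log2(value + 1), was 0.50 (SE 0.038, limma adjusted p = 0.0111), on 1049 to 1654 reads. The p of Ctns had rank 5 among all genes tested. It was the only member still called with no expression filter. Leaving out any 1 library other than control replicate 3 ended the call, at adjusted p of 0.0559 to 0.0855, with log2 fold changes of 0.48 to 0.52.

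Gpnmb (ENSMUSG00000029816) encodes a type I membrane glycoprotein of lysosomes and melanosomes and is a target of the MITF family. It was at 13.995, 15.7 and 15.5 in control and 24.8, 26.1 and 22.2 in VC. It had the largest fold change of the 31 genes, 1.62-fold as a ratio of means. Its log2 fold change, on log2(value + 1), was 0.66 (SE 0.075, limma adjusted p = 0.0257), on 706 to 1328 reads. Without any 1 library other than control replicate 3 it did not pass, at adjusted p of 0.0664 to 0.125, with log2 fold changes of 0.61 to 0.72.

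**Figure D5:**
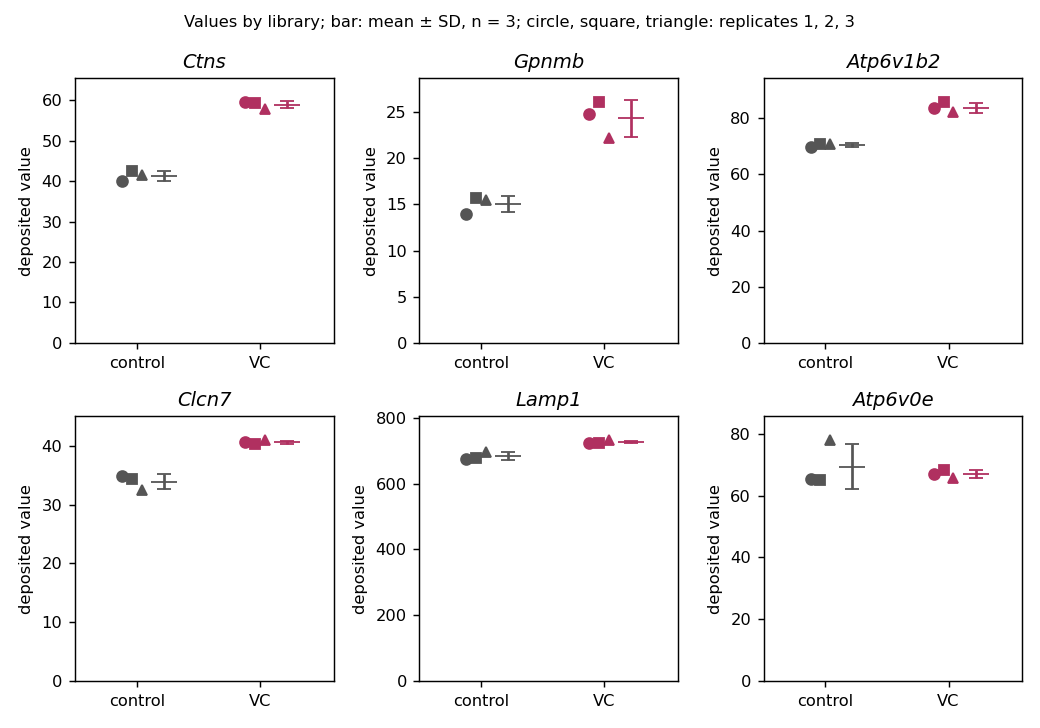
Deposited value (vertical axis, from 0) in control and VC libraries for Ctns, Gpnmb, Atp6v1b2, Clcn7, Lamp1 and Atp6v0e, with replicates 1, 2 and 3 as circle, square and triangle and the mean ± SD (n = 3) beside them. The VC libraries lie above all controls for the first 5 genes, by 15.4 units for Ctns, and for Atp6v0e only control replicate 3 (77.8) stands away from the rest.

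Among ion transporters, Clcn7, a chloride-proton exchanger, and Ostm1, the β subunit it needs for stability, both had separated groups. Clcn7 was at 34.8, 34.4 and 32.4 in control and 40.6, 40.3 and 40.9 in VC. The VC libraries differed by less than a unit among themselves, and the log2 fold change of 0.26 (SE 0.041) was just outside the threshold (limma adjusted p = 0.0538), which is why this gene is given in full. It passed with a filter of 5, with equal totals and on recovered reads. Ostm1 was at 7.86, 9.19 and 8.59 in control and 10.9, 12.1 and 10.2 in VC (log2 fold change 0.34, SE 0.084, limma adjusted p = 0.126). Mcoln1, the cation channel TRPML1 that releases calcium from lysosomes, was at 14.2, 13.5 and 15.0 in control and 17.7, 17.2 and 16.8 in VC. This was also a clear separation, at a log2 fold change of 0.26 (limma adjusted p = 0.0958).

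Slc38a9, Slc17a5, Mfsd8 and Cln3 were at 13.0 or less in every library and did not pass. Slc38a9, the arginine sensor that signals to mTORC1, ran from 1.71 to 1.79 in control and 1.97 to 2.23 in VC, on 232 to 300 reads. Its groups were separated, at a log2 fold change of 0.18 (SE 0.119). The ratio of means was 1.21-fold, since the added 1 shrinks the log2 fold change at values this low. Slc17a5, the sialic acid exporter sialin, and Mfsd8, mutated in a form of Batten disease, overlapped between groups at log2 fold changes of 0.14 and 0.15. Cln3, mutated in juvenile Batten disease, was separated at 10.2 to 11.1 in control and 11.2 to 13.0 in VC, with a log2 fold change of 0.19 (limma adjusted p = 0.239).

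The remaining membrane proteins include the glycoproteins that line the lysosome. Lamp1, the highest of the 31 genes, was at 674.2, 679.2 and 697.0 in control and 723.8, 724.3 and 731.4 in VC. Its groups did not overlap, but the step was 1.06-fold, or 0.09 on the log2 scale (SE 0.031, limma adjusted p = 0.223). It passed with equal totals (adjusted p = 0.0422) and after quantile normalization (adjusted p = 0.0448). Lamp2, needed for fusion of autophagosomes with lysosomes, had a log2 fold change of 0.12 and separated groups. The tetraspanin Cd63 ran from 332.0 to 382.3 in control and 357.4 to 367.6 in VC, so the VC libraries fell inside the control range (log2 fold change 0.04). Scarb2, the receptor that carries glucocerebrosidase to lysosomes, was separated at 12.5 to 14.3 and 15.1 to 16.0 (log2 fold change 0.20, limma adjusted p = 0.179).

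Tmem192 had the lowest fold change of the membrane proteins. This lysosomal protein, often tagged to purify lysosomes, was at 34.3, 37.1 and 40.5 in control and 39.2, 35.6 and 37.3 in VC. The groups overlapped, and the log2 fold change of 0.0036 (limma adjusted p = 0.987) took the other sign without control replicate 1, without VC replicate 1 and after quantile normalization.

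Other genes of the same pathway were read from related lists. Of 53 tested genes for further lysosomal membrane proteins, 3 rose and none fell past the threshold, against 0.429% and 0.258% of all genes tested. Mfsd1, a dipeptide transporter, was at 148.4, 152.6 and 149.2 in control and 180.3, 186.9 and 185.0 in VC, and rose by 0.29 on the log2 scale (SE 0.031, limma adjusted p = 0.0233). The glutamine and asparagine transporter Slc38a7 rose by 0.48 (SE 0.066) from 13.5, 15.5 and 13.7 to 20.97, 19.98 and 19.39, with limma adjusted p = 0.0375. Clcn6, a chloride-proton exchanger of late endosomes, rose by 0.30 (SE 0.046) from 20.2, 19.5 and 18.9 to 23.7, 24.1 and 24.9, with limma adjusted p = 0.0496. In this list 28.3% of genes were separated upwards and 3.77% downwards, against 13.9% and 11.6% over all genes tested. The list's median log2 fold change was 0.065, below the 0.17 of the 31 members, a difference that was not tested.

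None of the 13 tested genes for assembly and regulation of the pump passed, and none of the 5 genes of Ragulator, the complex that binds the pump and anchors Rag GTPases. Unadjusted p was under 0.05 for 2 genes higher and 0 lower in each of these lists. Of all 13972 genes, 1264 were higher and 1146 lower at that level. Limma called 0 in either direction, against 0.429% called higher and 0.258% lower over all genes tested. In the assembly list 3 of the 13 genes (23.1%) were separated upwards and in Ragulator 2 of the 5 (40%), against 13.9% over all genes tested. The median log2 fold change was 0.069 in the assembly list and 0.13 in Ragulator. Wdr7, a partner of the RAVE proteins that load V1 onto V0, was at 5.69, 6.12 and 4.79 in control and 7.17, 7.54 and 7.23 in VC (log2 fold change 0.35, limma adjusted p = 0.139). Lamtor3 had the highest log2 fold change of Ragulator, 0.22 (limma adjusted p = 0.0963), and Lamtor2 the lowest at -0.062. These 3 genes were picked after their values were seen.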

How the data were processed

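For 6 libraries the authors deposited a signal per gene, never below 0, which behaves as TPM times a factor per library, and the table's name points to TMM scaling by the authors. Reads were aligned with HISAT2 to GRCm39, per the submitters' processing notes, and the counting tool is not given in the sources used here. Columns were matched to samples by group letter and replicate number. Symbols and exon lengths came from GENCODE M21 on GRCm38, an earlier build, so gene coordinates are not given. Value times exon length gave whole reads within 0.1 read for 98.74% to 98.89% of values up to 1000 reads, which set the depth. Copies were searched with blastn 2.17.0 (95% identity, 200 bases).

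Genes at 1 or more in at least 3 libraries were kept, and limma 3.58.1 (R 4.3.3) contrasted the groups on log2(value + 1) with an intensity trend, two-sided, across all 13972 genes, at an adjusted p of 0.05. The procedure was also run on simulated data, with noise alike in all libraries and changes larger than those of most members. That run does not measure its error on these libraries. The member and related lists were chosen with earlier results of these data known. Full values were given for called members, the extremes of fold change and the most abundant gene of each group. Up to 4 called genes of each related list were named. Ostm1, Mcoln1 and other members shown by library beside these were picked with the values in view. Alternatives changed the pseudocount, filter, scaling, prior variance, block, test and libraries.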

Additional observations from a re-analysis of the deposited data

How the results depend on the processing

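The 3 sector medians were above 0 under all 15 alternatives, and no alternative called a member lower. The V1, V0 and membrane protein medians were 0.2457, 0.2246 and 0.2419 after scaling to equal totals (all tested genes 0.0782), and the membrane protein median was 0.128 with a pseudocount of 5. Called members numbered 1 with no filter, 11 with equal totals, 6 after quantile normalization, 11 on recovered reads, and 0 without the intensity trend, and genes called overall 30 with no filter, 183 with a filter of 5, 217 with equal totals, 6 without the trend and 548 on recovered reads. Leaving out 1 library gave 0 to 5 called members and 0 to 82 called genes (82 without control replicate 3). Deviations from the group means hardly correlated between libraries of equal replicate number (-0.019, -0.011 and 0.005). This cannot show whether those libraries were handled together, which the labels do not say. With a replicate block 0 genes and 0 members were called, against 2039 genes at an unadjusted p under 0.05. Values that changed sign were those near 0: Atp6v0e was 0.026 with equal totals, Tmem192 was -0.0057 after quantile normalization, and leaving out 1 library gave -0.0886 to 0.039 for Atp6v0e, -0.0537 to 0.0635 for Tmem192, -0.0269 to 0.0538 for Atp6v0c, and -0.0278 to 0.0515 for Atp6v1e1. The causes were not tested. At 207 reads or more in every library, reads of the members were not scarce.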

Other observations

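After the values were seen, the promoter windows were also searched on both strands for TCATGTG. This is the core of the M-box that MITF-family factors bind in pigment cell genes, and it differs from the E-box letters CACGTG searched above. It was found in 3 of 26 members with a window (Atp6v0c, Clcn7 and Scarb2), or 11.5%, against 4.31% of the 27025 genes in the table. It was not among the 300 bases of Gpnmb. Among further lysosomal transporters that missed the threshold, Slc36a1, a proton-coupled amino acid exporter, was at 11.5, 12.7 and 10.1 in control and 15.2, 16.9 and 16.0 in VC (log2 fold change 0.46, limma adjusted p = 0.0757), and Spns1, an exporter of lysophospholipids, was at 26.9, 28.5 and 29.8 in control and 33.4, 36.1 and 35.8 in VC (log2 fold change 0.29, limma adjusted p = 0.0698). In both genes all VC libraries lay above all control libraries, and both were picked after their values were seen.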
